A study of Mus musculus with 6 samples.

Results

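The 10 genes described here encode the contractile apparatus of smooth muscle. They were taken by symbol from the deposited gene table and are Acta2, Actg2, Myh11, Mylk, Tagln, Cnn1, Lmod1, Smtn, Des and Synm. All 10 were found among the 24532 genes of the table. The data were bulk RNA-seq libraries of mouse kidney and ureter at PN1. Kidney gave 2 libraries of Ahnak KO and 2 of WT mice, and ureter gave 1 library of each genotype. Ahnak encodes a large scaffold protein, and the KO mice carry a disruption of exon 5 in every cell. The study asked how loss of Ahnak affects the urinary system and its smooth muscle, and the design also allows kidney to be compared with ureter. RNA came from 2 to 4 kidneys or ureters according to the methods, which also speak of 2 biological replicates without naming the tissue. The labels do not tie a library to an animal, so p-values measure the spread between these libraries. The strain, sex and pooling of the animals are not given for each library.

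Smooth muscle shortens when calcium-bound calmodulin activates myosin light chain kinase, which phosphorylates the regulatory light chain of myosin and lets the myosin heads pull on actin filaments. In the ureter, layers of such muscle around the urothelium drive urine to the bladder by peristalsis. In the kidney, smooth muscle lies in the walls of arteries and arterioles and around the renal pelvis. Many genes of this apparatus are switched on together by serum response factor (SRF) and its cofactor myocardin, which act through a promoter element called the CArG box.

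Library totals were 55744703 to 66095616 estimated counts in the kidney libraries, 54985927 in the WT ureter library and 36410246 in the Ahnak KO ureter library. The Ahnak KO ureter library stood apart by the ribosomal RNA gene Rn45s, which took 8.06% of its counts against 0.496% to 0.632% in the other 5 libraries. Ahnak KO kidney replicate 1 stood apart by Xist, with 176348 counts against 17 to 36 elsewhere, and was listed at 0 for the Y-linked gene Ddx3y, where Ahnak KO kidney replicate 2 held 6763 counts, so these 2 libraries were not repeats of 1 RNA. The columns of the Ahnak KO kidney replicate 2 and the Ahnak KO ureter carry the same code, as do those of WT kidney replicate 2 and the WT ureter, and the meaning of the codes is not stated. Ahnak itself was at 20.6 and 22.1 TPM in the Ahnak KO kidneys, 27.7 and 24.7 TPM in the WT kidneys, 88.0 TPM in the Ahnak KO ureter and 77.5 TPM in the WT ureter. On TMM-scaled CPM the ureter order was the opposite, with a log2 ratio of -0.20, Ahnak KO over WT. The kidney genotypes did not overlap for Ahnak, as was so for 26.1% of the 16481 genes tested. The log2 fold change was -0.47 (SE 0.10), with an unadjusted edgeR p of 0.00265 and an edgeR adjusted p of 0.9999. A gene-level value of this kind does not show whether exon 5 was disrupted, so the genotypes are those of the labels. The titles of both ureter libraries say kidney, while their source field and the column headers say ureter. Their markers went with ureter. The 8 urothelial genes summed to 8233 and 8858 TPM in the ureter libraries against 91.2 to 109 TPM in the kidney libraries. The 7 tubule genes summed to 0.863 and 0.577 TPM in the Ahnak KO and WT ureters against 950 to 1042 TPM in the kidney libraries. Of these, Slc34a1, Umod, Slc12a1, Slc12a3 and Aqp2 were listed at 0 in both ureter libraries, while Lrp2 and Cubn were not.

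RefSeq promoter entries (GRCm38.p6, 250 bases before to 50 bases after a start) matched 7 of the 10 genes. Tagln, Myh11 and Actg2 had no entry. The CArG box, which is its own reverse complement, holds a pair of C, 6 bases that are A or T, and a pair of G. It was found without departure in 0 of the 7 promoters and in 1.63% of all 32851 promoters. With at most 1 departure it was found in 3 of the 7, in Acta2, Lmod1 and Synm, and in 21.1% of all promoters. These 5 matches are shown because the element is the one through which SRF acts, with the 10 bases of the match in capitals and each sequence read along the strand of its gene. The Acta2 matches began 84 and 34 bases before the listed start, and they overlap an exon of a longer GENCODE M21 transcript of Acta2.
Acta2, chr19:34255440-34255465, minus strand: gctgaggtCCCTATATGGttgtgtta
Acta2, chr19:34255390-34255415, minus strand: tctttgctCCTTGTTTGGgaagcgag
Lmod1, chr1:135324616-135324641, plus strand: ccccttgtCTTTAAAAGGctaaactg
Lmod1, chr1:135324641-135324666, plus strand: gctctgtaCTAAATTTGGtcacgcag
Synm, chr7:67759964-67759989, minus strand: acggggagCCTCATAAGGtgtcccag

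The MCAT element CATTCC, known as a binding site of TEAD factors in muscle promoters, was searched on both strands after the sequences had been read. It was found in 4 of the 7 promoters, those of Acta2, Smtn, Mylk and Lmod1, and in 14.7% of all promoters. None of its matches overlapped a CArG match. The Acta2 match lies in the exon named above, those of Smtn and Mylk lie between exons of a longer GENCODE M21 transcript of the same gene, and that of Lmod1 lies outside its transcripts. Neither element was found in the windows of Cnn1 and Des, which says only that these letters are not in those windows. The MCAT matches are in capitals below, and those of Acta2 and Lmod1 lie on the opposite strand.
Acta2, chr19:34255506-34255527, minus strand: agaacagaGGAATGcagtggaa
Smtn, chr11:3539501-3539522, minus strand: ttgtggcaCATTCCggactttg
Mylk, chr16:34784784-34784805, plus strand: gttcagaaCATTCCctggtacg
Lmod1, chr1:135324675-135324696, plus strand: gattccctGGAATGtcctcaag

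The contractile genes were higher in ureter than in kidney. With genotype as a term and all 6 libraries in the fit, 10 of 10 genes were called higher (edgeR quasi-likelihood test, adjusted p under 0.05) and 0 lower, where 21.4% of the 16873 genes tested were called higher and 23.7% lower. Of the 10, 9 rose by over 2-fold, where 11.9% of all genes tested did. The log2 fold changes ran from 0.43 in Smtn to 7.23 in Actg2, with a median of 3.30 against -0.08 over all genes tested. The order was Actg2, Cnn1, Myh11, Lmod1, Tagln, Acta2, Mylk, Synm, Des and Smtn. In 9 of the genes both ureter libraries lay above all 4 kidney libraries in TPM, the exception being Smtn. The share of all genes on this TPM measure is not given here. In whole tissue, fewer smooth muscle cells and less RNA per cell cannot be told apart. Scaled by library size alone, the median of all genes tested moved to -0.36 and higher calls fell from 47.4% to 28.0% of all calls, while 9 of the 10 genes were still called higher.

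**Figure D1:**
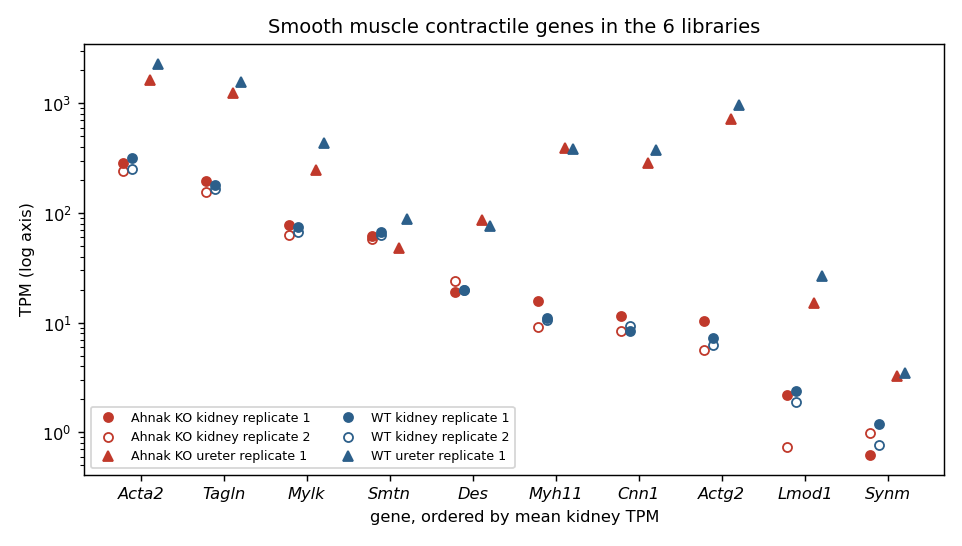
TPM on a log axis of the 10 contractile genes in each library, with circles for kidney, triangles for ureter, red for Ahnak KO, blue for WT, and open circles for replicate 2. Ureter points lie above all kidney points in every gene but Smtn, and the gap is widest for Actg2, at 5.64 to 10.4 TPM in kidney and 728 and 975 TPM in ureter.

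Acta2, the alpha actin of vascular and other smooth muscle, was the most abundant of the 10 genes per length in every library. It was at 286 and 239.6 TPM in the Ahnak KO kidneys, 318 and 252 TPM in the WT kidneys, 1623 TPM in the Ahnak KO ureter and 2309 TPM in the WT ureter. Both ureter values were far above the kidney range. The difference was a log2 fold change of 3.21 (SE 0.12, edgeR adjusted p = 1.56e-05), or 9.25-fold.

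Actg2, the gamma actin typical of visceral smooth muscle, was at 10.4 and 5.64 TPM in the Ahnak KO kidneys, 7.22 and 6.26 TPM in the WT kidneys, 728 TPM in the Ahnak KO ureter and 975 TPM in the WT ureter. It had the largest difference of the 10 genes, a log2 fold change of 7.23 (SE 0.26, edgeR adjusted p = 1.34e-05), or 150.4-fold. Actg2 stood at 2.27% to 3.64% of the Acta2 level in the kidney libraries and at 44.8% and 42.2% in the Ahnak KO and WT ureter libraries. The actins are near-identical proteins, so reads could be split between them. Over transcript windows of 100 bases, 0% of Acta2 and 0% of Actg2 matched a transcript of another gene, and over 50 bases 0.352% of Acta2 and 0% of Actg2 did.

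Tagln, which encodes the actin-bundling protein transgelin, was at 198 and 156 TPM in the Ahnak KO kidneys, 179 and 166 TPM in the WT kidneys, 1240 TPM in the Ahnak KO ureter and 1567 TPM in the WT ureter. Its log2 fold change was 3.38 (SE 0.12, edgeR adjusted p = 1.17e-05). This gene was second in abundance per length in every library. Cnn1, which encodes the actin-binding protein calponin, was at 11.4 and 8.49 TPM in the Ahnak KO kidneys, 8.38 and 9.25 TPM in the WT kidneys, 284 TPM in the Ahnak KO ureter and 375 TPM in the WT ureter. Its log2 fold change was 5.51 (SE 0.15, edgeR adjusted p = 6.25e-06), so that the level of Cnn1 relative to Tagln was 4.67% to 5.77% in kidney and 22.9% and 23.9% in the Ahnak KO and WT ureters.

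Lmod1, which encodes leiomodin, a protein that starts new actin filaments in smooth muscle, was at 2.19 and 0.740 TPM in the Ahnak KO kidneys, 2.37 and 1.89 TPM in the WT kidneys, 15.3 TPM in the Ahnak KO ureter and 26.8 TPM in the WT ureter. The lowest kidney value, in Ahnak KO kidney replicate 2, rested on 84 counts. Both ureter libraries were above all kidney libraries, with a log2 fold change of 3.91 (SE 0.37, edgeR adjusted p = 0.00039). On log2(FPKM + 1), where the added 1 understates low genes, the difference was 2.64.

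Myh11, the smooth muscle myosin heavy chain, was at 15.8 and 9.22 TPM in the Ahnak KO kidneys, 10.9 and 10.6 TPM in the WT kidneys, 395 TPM in the Ahnak KO ureter and 382 TPM in the WT ureter. The ureter libraries lay close together and far above the kidneys. The log2 fold change was 5.45 (SE 0.20, edgeR adjusted p = 1.34e-05), or 43.8-fold. Mylk encodes myosin light chain kinase, and its gene-level value sums the smooth muscle form, a longer non-muscle form and telokin. It was at 77.3 and 62.5 TPM in the Ahnak KO kidneys, 74.6 and 66.7 TPM in the WT kidneys, 249 TPM in the Ahnak KO ureter and 432 TPM in the WT ureter. Its log2 fold change of 2.62 (SE 0.16, edgeR adjusted p = 6.88e-05) was smaller than that of Myh11, and the Myh11 level relative to Mylk went from 14.7% to 20.4% in kidney to 159% in the Ahnak KO ureter and 88.4% in the WT ureter.

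Des encodes desmin, the intermediate filament protein of muscle cells, and was at 19.0 and 24.1 TPM in the Ahnak KO kidneys, 19.96 and 20.1 TPM in the WT kidneys, 86.3 TPM in the Ahnak KO ureter and 76.4 TPM in the WT ureter. Its log2 fold change was 2.35 (SE 0.13, edgeR adjusted p = 5.33e-05). Synm encodes synemin, which joins desmin in these filaments, and was the least abundant of the 10 genes in both ureter libraries. It was at 0.620 and 0.9896 TPM in the Ahnak KO kidneys, 1.20 and 0.761 TPM in the WT kidneys, 3.26 TPM in the Ahnak KO ureter and 3.45 TPM in the WT ureter. The log2 fold change of Synm was 2.39 (SE 0.26, edgeR adjusted p = 0.000685), and 0.94 on log2(FPKM + 1).

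Smtn encodes smoothelin, an actin-associated protein of contractile smooth muscle. It was the only one of the 10 genes whose ureter values lay on both sides of the kidney range in TPM. It was at 61.4 and 57.9 TPM in the Ahnak KO kidneys, 66.6 and 63.5 TPM in the WT kidneys, 48.5 TPM in the Ahnak KO ureter and 87.5 TPM in the WT ureter. In TPM the Ahnak KO ureter was thus below every kidney library and the WT ureter above every one. The scales differed here, since the edgeR fit of TMM-scaled counts in the Ahnak KO libraries alone gave a log2 fold change of 0.14, ureter over kidney. The log2 fold change was 0.43 (SE 0.14, edgeR adjusted p = 0.0422). The call was kept in 8 of 18 alternatives and lost in the rest. Without the WT ureter library the value was 0.14 (edgeR adjusted p = 0.412) and without the Ahnak KO ureter library it was 0.70 (edgeR adjusted p = 0.00886). The call was also lost without Ahnak KO kidney replicate 2, WT kidney replicate 1 or WT kidney replicate 2, at 0.46, 0.40 and 0.37 (edgeR adjusted p = 0.0729, 0.101 and 0.118). Scaled by library size alone it was 0.15 (edgeR adjusted p = 0.497). Over the 18 alternatives the adjusted p ran from 0.00653 to 0.497.

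**Figure D2:**
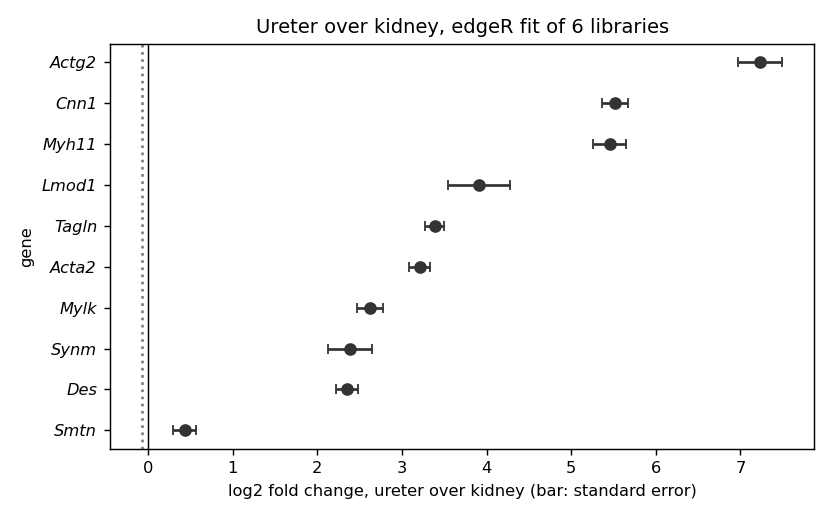
Log2 fold change of each contractile gene, ureter over kidney, from the edgeR fit of 6 libraries with genotype as a term. Points are estimates, bars are the standard error, and the dotted line is the median of all genes tested (-0.08). Actg2, at 7.23, lies farthest right and Smtn, at 0.43, closest to 0.

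Within each genotype, where 2 kidney libraries stood against 1 ureter library, the differences kept their sign. They ran from 0.69 in Smtn to 7.47 in Actg2 among WT libraries, and from 0.14 to 6.97 in the same genes among Ahnak KO libraries. In these fits the lone ureter library is taken to vary like the kidney pair, so only the sizes are given.

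The make-up of the contractile signal differed between the tissues. The 10 genes together made up 0.0566% to 0.0691% of all TPM in the kidney libraries, 0.469% in the Ahnak KO ureter and 0.626% in the WT ureter. Acta2 and Tagln took the largest shares of this sum in all 6 libraries. Acta2 held 41.9% to 46.2% in kidney and 34.7% and 37.0% in the Ahnak KO and WT ureters, and Tagln 26.0% to 29.0% and 26.5% and 25.1%. Actg2 went from 0.998% to 1.52% in kidney to 15.6% in each ureter library. Myh11 held 1.59% to 2.31% in kidney and 8.45% and 6.13% in the Ahnak KO and WT ureters, and Cnn1 held 1.22% to 1.68% in kidney and 6.09% and 6.02% in ureter. Smtn held 9.01% to 10.6% in kidney and 1.04% and 1.40% in the Ahnak KO and WT ureters, and Mylk held 10.8% to 11.3% in kidney and 5.32% and 6.94% in ureter.

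**Figure D3:**
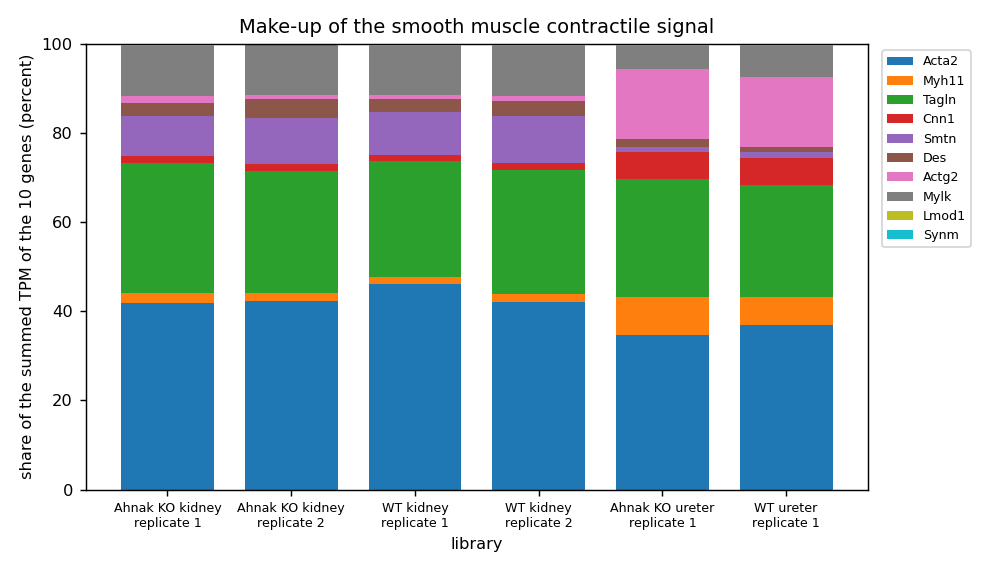
Share in percent of the summed TPM of the 10 contractile genes held by each gene, one bar per library. Actg2, at 0.998% to 1.52% in the kidney bars, holds 15.6% in each ureter bar, while Smtn shrinks from 9.01% to 10.6% to at most 1.40%.

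In kidney, the mean TPM fell in the order Acta2, Tagln, Mylk, Smtn, Des, Myh11, Cnn1, Actg2, Lmod1 and Synm. The ranges of the 4 libraries overlapped between Mylk and Smtn, between Myh11 and Cnn1, between Cnn1 and Actg2, and between Lmod1 and Synm, so the order of these neighbours was not set beyond the spread. In the WT ureter the order was Acta2, Tagln, Actg2, Mylk, Myh11, Cnn1, Smtn, Des, Lmod1 and Synm. In the Ahnak KO ureter Myh11 and Cnn1 stood above Mylk, and Des above Smtn. With 1 library each, these orders have no replicate check.

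Partners of the contractile genes were counted from 4 lists, and their counts stand against the 21.4% of all genes tested that were called higher and the 23.7% called lower. Of the 7 SRF cofactors and regulators, 4 rose in ureter, 0 fell and 3 did not pass the test. Myocd, which encodes myocardin, was at 0.856 and 0.640 TPM in the Ahnak KO kidneys, 0.643 and 0.733 TPM in the WT kidneys, 14.3 TPM in the Ahnak KO ureter and 11.3 TPM in the WT ureter. Its log2 fold change of 4.53 (SE 0.19, edgeR adjusted p = 2.04e-05) lay between those of Lmod1 and Myh11. Klf4, a factor known to oppose the contractile programme, rose by 2.17 (SE 0.23), Gata6 by 2.08 (SE 0.29) and Tshz3, a factor of ureteral smooth muscle, by 1.42 (SE 0.30), all on the log2 scale. Srf had a log2 fold change of 0.09 (SE 0.14), Mrtfa of 0.10 (SE 0.16) and Mrtfb of 0.42 (SE 0.16), with edgeR adjusted p of 0.62, 0.642 and 0.0698.

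Of the 11 thin filament partners, 9 were tested, of which 6 rose, 1 fell and 2 did not pass. The tropomyosins moved unequally, since Tpm2 had a log2 fold change of 2.96 (SE 0.10) and Tpm1 of 1.34 (SE 0.13), while Tpm4 was at -0.53 (SE 0.10). Of the 17 genes of myosin and its regulation, 9 rose, 3 fell and 5 did not pass. Myl9, the regulatory light chain that Mylk phosphorylates, had a log2 fold change of 2.68 (SE 0.13), close to the 2.62 of Mylk, and Ppp1r12b, a subunit of the phosphatase that reverses this step, one of 2.61 (SE 0.22). Myh10, a non-muscle myosin heavy chain, was at -1.03 (SE 0.12), and the Myh11 level relative to Myh10 was 7.85% to 11.9% in kidney and 885% and 767% in the Ahnak KO and WT ureters. Mylk2, the skeletal muscle kinase, held 20 to 40 counts in the kidney libraries and was listed at 0 in both ureter libraries.

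Of the 27 anchoring and intermediate filament partners, 16 rose, 4 fell and 7 did not pass. Ldb3, a Z-disc protein of striated muscle, and Hspb6, a small heat shock protein of muscle, had log2 fold changes of 4.18 (SE 0.36) and 4.07 (SE 0.18). Nes, the intermediate filament nestin, was at -1.44 (SE 0.13) and Itga8, an integrin of mesangial cells and kidney mesenchyme, at -2.37 (SE 0.19). The medians of the 4 lists were 1.42, 0.53, 0.40 and 0.81 on the log2 scale, against 3.30 for the contractile genes.

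**Figure D4:**
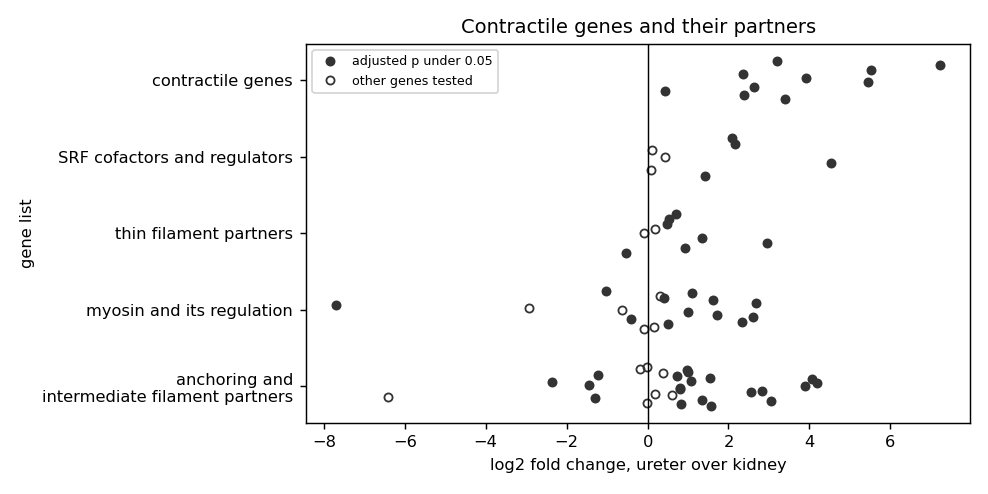
Log2 fold change, ureter over kidney, of each tested gene of the contractile list and the 4 partner lists, with filled points for an edgeR adjusted p under 0.05. All 10 contractile points are filled and right of 0, while each partner list holds genes that did not pass and 3 of the 4 hold genes that fell.

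Genes of other tissues moved with the same comparison, again against 21.4% of all genes called higher and 23.7% lower. All 6 fibroblast genes rose in ureter, with summed levels of 1095 to 1457 TPM in kidney and 8364 and 7344 TPM in the Ahnak KO and WT ureters. Of the 15 striated muscle genes 10 rose and 2 fell, with sums of 25.2 to 28.7 TPM in kidney and 443 and 926 TPM in ureter. Among the striated genes Tnnt2 was at 227 and 369 TPM and Ckm at 81.7 and 109 TPM in the Ahnak KO and WT ureters. Actc1 was at 52.1 and 242 TPM and Acta1 at 25.7 and 72.5 TPM in the same libraries. Ttn, of the same list, was at 0.00202 and 0.0455 TPM. Of the 7 pericyte and mural genes 3 rose and 2 fell, with sums of 481 to 940.5 TPM in kidney and 316 and 366 TPM in the ureters. Without the renin gene Ren1, at 169 to 615 TPM in kidney and 5.65 and 3.23 TPM in the ureters, the sums were 305 to 326 TPM in kidney and 311 and 363 TPM in the ureters. Of the 4 endothelial genes 1 rose and 0 fell. The part of these cells in the values of the contractile genes was not tested.

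The pattern most like the mean of the 10 genes over the 6 libraries, on log2(CPM + 0.5), was that of Tmprss13, followed by Sytl1, Tns4, Snx31, Septin5, Upk2, Stk24, Degs2, Nt5c and Myl9, with Pearson r from 0.9987 to 0.9998. Of the 14136 genes compared, 386 had an r over 0.99, and all points share the tissue difference. A high r thus says mostly that a gene was higher in ureter, and not by how much. Tmprss13 and Nt5c had log2 fold changes, ureter over kidney, of 7.22 and 0.68. Of the 10 genes named, Myl9 stands on a partner list and Upk2 on the urothelial list.

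Between Ahnak KO and WT kidney, 0 of the 10 genes were called, where 0.0121% of the 16481 genes tested were (edgeR quasi-likelihood test, adjusted p under 0.05). The log2 fold changes, Ahnak KO over WT, ran from -0.52 in Lmod1 to 0.27 in Actg2, with a median of 0.07. There were 7 positive and 3 negative values. The edgeR adjusted p was 0.9999 for each, and 0 of the 10 had an unadjusted p under 0.05, as 227 of all genes tested did. DESeq2 called 46 genes and 0 of the 10. The genotypes overlapped in 9 genes, while over all genes tested 26.1% did not overlap. Smtn was the exception, at 61.4 and 57.9 TPM in the Ahnak KO kidneys below 66.6 and 63.5 TPM in the WT kidneys, with a log2 fold change of -0.09 (SE 0.10).

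Within the Ahnak KO pair the kidneys differed more than the genotypes did for several genes. Replicate 1 was above replicate 2 in TPM for 8 of the 10 genes, all but Des and Synm. The share of all genes that did so is not given here, so this count shows nothing particular to the contractile genes. For Actg2 the gap within the Ahnak KO pair was 0.74 on the log2 scale and within the WT pair 0.19, against a genotype value of 0.27 (SE 0.34). For Myh11 the gaps were 0.70 and 0.04, against 0.24 (SE 0.23). Lmod1 had the widest gap, 1.23 within the Ahnak KO pair and 0.28 within the WT pair, against a genotype value of -0.52 (SE 0.51). Without Ahnak KO kidney replicate 2 the Lmod1 value was 0.04, and without replicate 1 it was -1.46. When Ahnak KO kidney replicate 1 was left out, Myh11, Tagln, Actg2 and Mylk turned negative, at -0.16, -0.09, -0.19 and -0.12. That library was high in Xist and at 0 for Ddx3y, while Ahnak KO kidney replicate 2 and both WT kidneys held 5501 to 7062 Ddx3y counts. These sex-linked genes thus differed within the Ahnak KO pair and not within the WT pair. The part of sex in the gaps and genotype values was not tested.

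Acta2 had a genotype value of -0.09 (SE 0.14), Tagln of 0.06 (SE 0.13) and Mylk of 0.01 (SE 0.13). Cnn1 was at 0.21 (SE 0.22) and Des at 0.14 (SE 0.17). Synm was at 0.07 (SE 0.37), and at -0.08 on log2(FPKM + 1). None of these values shows that the genotypes act alike, since the standard errors leave room for differences of that size in either direction.

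Between the single ureter libraries, 7 of the 10 genes were lower in Ahnak KO and 3 higher, where 51.8% of the 16117 genes with enough counts were lower. Over 1.5-fold lower were 3 of the 10, Smtn, Lmod1 and Mylk, where 15.4% of all genes were. The median log2 ratio of the 10 genes was -0.22, against -0.02 over all genes. There was 1 library a genotype, so no test was made, and the 95% intervals given are exact binomial ones that cover counting error only.

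Smtn had the lowest ratio, a log2 ratio of CPM + 0.5 of -0.65 (interval -0.72 to -0.60) from 3088 counts in Ahnak KO and 8395 in WT. Lmod1 was at -0.61 (interval -0.72 to -0.52) from 1173 and 3110 counts, and Mylk at -0.61 (interval -0.63 to -0.59) from 37754 and 99556 counts. For Smtn and Mylk the ratio was wider than the largest gap between kidneys of 1 genotype, 0.07 and 0.24. For Lmod1 that gap, 1.23, was wider than the ratio. On this scale Smtn and Mylk were the 2 of the 10 genes for which the ureter ratio passed the kidney gap. With ratio and gap both taken by library size alone there were 5, since Acta2, Tagln and Cnn1 passed too at -0.51, -0.34 and -0.40, and the same 5 passed in deposited FPKM. In deposited TPM there were 3, Acta2, Smtn and Mylk. The share of all genes that pass their kidney gap is not given here, so these counts show nothing particular to the contractile genes.

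The actins and calponin family genes lay closer to 0. Acta2 had a log2 ratio of -0.32, Actg2 of -0.24, Cnn1 of -0.21 and Tagln of -0.15, on TMM-scaled CPM each within the largest gap between kidneys of 1 genotype, which were 0.34, 0.74, 0.34 and 0.28. The 3 genes above 0 were Des at 0.36 (interval 0.31 to 0.42), Synm at 0.25 (interval 0.10 to 0.43) and Myh11 at 0.23 (interval 0.22 to 0.25), also within their kidney gaps of 0.40, 0.66 and 0.70. The thick filament gene Myh11 and its activating kinase Mylk thus had ratios of opposite sign.

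**Figure D5:**
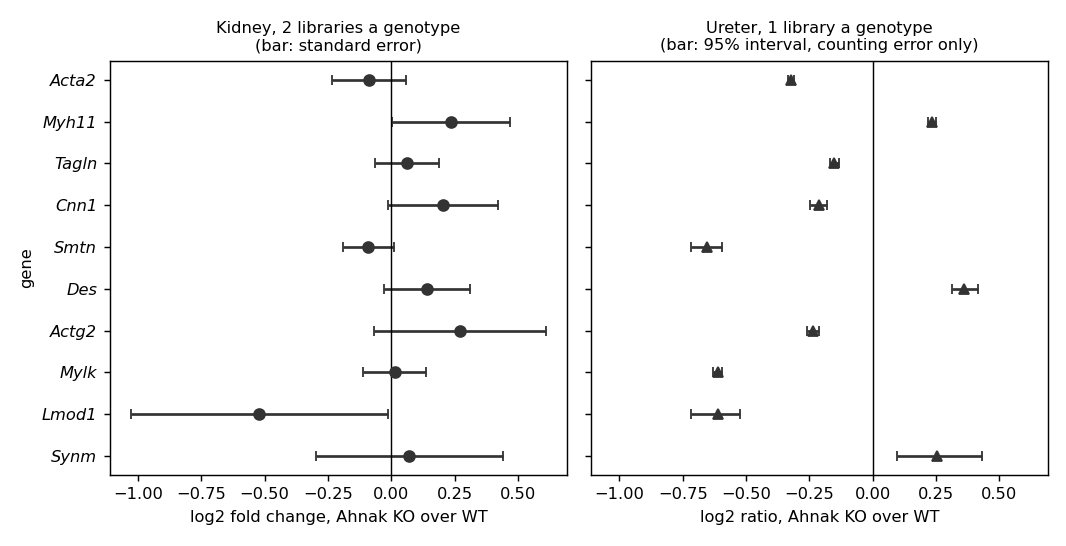
Ahnak KO over WT on the log2 scale for each contractile gene, in kidney (left, edgeR estimate with its standard error, 2 libraries a genotype) and in ureter (right, ratio of 1 library each with a 95% interval of counting error only). Kidney values run from -0.52 to 0.27, and in ureter Smtn, Lmod1 and Mylk lie at or below -0.61 while Des, Synm and Myh11 lie above 0.

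The scaling of the ureter libraries set part of these values. By library size alone the median of all genes moved from -0.02 to -0.20, and Smtn, Mylk and Lmod1 were at -0.84, -0.80 and -0.80 while Myh11 was at 0.04. In deposited TPM, 8 of the 10 genes were lower in Ahnak KO, with Synm at -0.08, while the median of all genes was -0.20. Relative to the summed TPM of the fibroblast genes, 10 of 10 were lower, from -1.04 in Smtn to -0.01 in Des, and the median of all genes was then -0.39. The share of all genes lower in Ahnak KO is not given for these scales. On TMM-scaled CPM, 14 of the 15 striated muscle genes were lower in Ahnak KO, where 51.8% of all genes were. Over 1.5-fold lower were 11 of the 15, where 15.4% of all genes were, and the list median was -1.25. On the same scale the 6 fibroblast genes were all higher in Ahnak KO, with a list median of 0.34 against -0.02 over all genes. Of the SRF list, Myocd had a ratio of 0.52, Mrtfb of 0.70, Srf of -0.59, Mrtfa of -0.66 and Tshz3 of -0.82, so the cofactors did not share 1 direction. The part of Rn45s, of striated muscle and of fibroblasts in the ureter ratios was not tested.

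Relative to another gene of the apparatus, some members stood near the same level in both ureter libraries and some did not. Actg2 stood at 44.8% of the Acta2 level in Ahnak KO and 42.2% in WT, and Cnn1 at 22.9% and 23.9% of the Tagln level. Des stood at 6.60% and 6.57% of the level of Vim, the intermediate filament gene of mesenchymal cells. Myh11 stood at 24.3% of the Acta2 level in Ahnak KO and 16.6% in WT, and Smtn at 2.99% and 3.79%. In kidney the Myh11 to Acta2 level was 5.52% and 3.85% in Ahnak KO and 3.44% and 4.23% in WT, so the genotypes overlapped there.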

How the data were processed

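TruSeq Stranded mRNA libraries were sequenced on a HiSeq2500. The methods name Cutadapt, STAR, Cufflinks and GRCm39, while the submitters' processing notes name Trimmomatic 0.38, HISAT2 2.1.0, StringTie 1.3.4b and mm10, and the deposited table carries mm10 in its name. Which aligner and counter made it was not resolved. The authors deposited for 24532 genes in 6 libraries whole-number expected (estimated) counts beside FPKM and TPM. The estimated counts deposited by the authors are not normalized, and their FPKM and TPM are scaled by length and depth. Counts of a gene sum its isoforms, and use of strand in counting is not given in the sources used here.

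Estimated counts were tested with edgeR 4.0.16 in R 4.3.3 (TMM, filterByExpr, quasi-likelihood test, Benjamini-Hochberg over all genes tested), with tissue and genotype as terms over 6 libraries (3 residual degrees of freedom) or genotype alone over 4 kidney libraries (2). Standard errors are the absolute log2 fold change over the square root of F, an approximation. For the ureter genotypes, log2 ratios of TMM-scaled CPM + 0.5 were taken where the higher library held at least 10 counts. Scripts were tested on simulated data with 200 changed genes. At a dispersion of 0.05, a log2 change of 1 was recovered in 37.5% of these genes for tissue and 15% for kidney genotype. A log2 change of 2 was recovered in 100% and 98.5%. The common dispersion of the fitted data was 0.072 for tissue and 0.054 for kidney genotype. Alternatives used DESeq2 1.42.0, limma 3.58.1 on FPKM, other scalings, filters and pseudocounts, blocks, and each library left out.

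The genes, the 4 partner lists and the lists of other cell types were chosen with earlier results of these data known, so no list is independent support. The named partners are the 7 SRF regulators and, from each other list, up to 2 largest rises and 2 largest falls with an adjusted p under 0.05. Mrtfa and Mrtfb stand as Mkl1 and Mkl2 in the table, and Septin5, shown there as a date, was restored by gene number.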

Additional observations from a re-analysis of the deposited data

How the results depend on the processing

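Between kidney and ureter, 9 or 10 of the 10 contractile genes were called under all 18 alternatives, Smtn being the gene lost, and 170 of the 180 alternative values kept their direction and call. Kidney and ureter columns share a code for 1 kidney and 1 ureter library of each genotype, and whether the code marks an animal is not stated. With the code as a block over these 4 libraries, added after seeing the data, edgeR called 9 of the 10 and 4841 genes in all against 7595. Between Ahnak KO and WT kidney 0 of the 10 were called under all 13 alternatives, while over all genes the count of 2 became 46 by DESeq2, 46 without Ahnak KO kidney replicate 1, 87 without Ahnak KO kidney replicate 2, 10 without WT kidney replicate 1, 3 without WT kidney replicate 2, 1 with at least 10 counts in every library and 0 by limma on FPKM. The replicate block gave 0 contractile genes and 0 genes in all. Deviations of same-numbered kidneys had an r of -0.19. This cannot decide whether the numbers pair the libraries, since each genotype gave a single deviation per gene. The crossed replicate block, added after seeing the data, gave 0 and 1. Of the kidney values 14 turned sign and 116 did not, none of them called. On log2(FPKM + 1) Mylk was at -0.0087 and Synm at -0.082, and on log2(FPKM + 0.1) they were at -0.0090 and -0.22. With each library left out in turn the ranges were -0.25 to 0.089 for Acta2, -0.16 to 0.55 for Myh11, -0.088 to 0.20 for Tagln, -0.076 to 0.33 for Des, -0.19 to 0.62 for Actg2, -0.12 to 0.13 for Mylk, -1.46 to 0.037 for Lmod1 and -0.37 to 0.41 for Synm. Between the ureters 7 to 10 of the 10 genes were lower under 7 other scalings or pseudocounts, where the median of all genes ran from -0.39 to -0.02. With 1 ureter library a genotype no library could be left out of that ratio, and the cause of these moves was not tested.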

Other observations

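Synm gave a different order of the kidney libraries by count and by TPM. Its counts were 134 and 224 in the Ahnak KO kidneys and 208 and 170 in the WT kidneys, so that Ahnak KO kidney replicate 2 was highest, while by TPM WT kidney replicate 1 was highest at 1.20. Both scales put Ahnak KO kidney replicate 1 lowest. The level of Synm relative to Des was 3.26% and 4.11% in the Ahnak KO kidneys, 6.03% and 3.79% in the WT kidneys, 3.77% in the Ahnak KO ureter and 4.51% in the WT ureter.

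The level of Lmod1 relative to Acta2 was 0.767% and 0.309% in the Ahnak KO kidneys, 0.743% and 0.752% in the WT kidneys, 0.943% in the Ahnak KO ureter and 1.16% in the WT ureter, so Ahnak KO kidney replicate 2 stood apart for Lmod1 and not for Acta2. The level of Smtn relative to Acta2 was 20.9% to 25.2% in the kidney libraries and 2.99% and 3.79% in the Ahnak KO and WT ureters.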
